A study of Arabidopsis thaliana with 27 samples.

Results

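Genes for core and linker histones were followed through 3 temperature shifts of Arabidopsis thaliana seedlings measured by RNA-seq. The set was chosen by gene family, with earlier results of these data known, and held 36 of the 33557 genes in each count table. It comprised 5 genes for H3.1, 3 for H3.3, 8 for H4, 4 for canonical H2A, 2 for H2A.X, 3 for H2A.W, 8 for H2B and 3 for linker H1, with H2A.Z left out. All 36 passed the filter on low counts in every comparison. The groups were Col-0 wild-type whole seedlings, grown for 10 days in long days at 17 °C per the labels. In the first experiment seedlings were moved to 37 °C or kept at 17 °C for 15 min, 1 h or 4 h, with 1 library per temperature and time. In the second they were moved to 27 °C or kept at 17 °C for the same times, with 2 libraries per temperature and time. In the third they were moved to 27 °C or kept at 22 °C, with 1 library each, and the growth text of the labels does not describe 22 °C. Each experiment also had 1 unshifted library at 0 min, which gave 27 libraries in all, 15 of them unshifted. Shifts began early in the light period, so time after the shift and time of day ran together in all groups.

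Nucleosomes wrap DNA around pairs of H2A, H2B, H3 and H4, and H1 binds the linker between them. Most histone genes are transcribed in S phase, when new DNA needs new nucleosomes, and H3.1 is placed behind the replication fork by the chaperone CAF-1. The replacement histone H3.3 is made throughout the cell cycle and in cells that no longer divide, is placed by HIRA and other chaperones, and accumulates over transcribed genes. In a seedling, dividing cells are a minority that sits in the root and shoot meristems and young leaves. RNA came from whole seedlings, so fewer cells in S phase and less histone mRNA per cell cannot be told apart here.

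Total counts per library ran between 5790129 and 30741125. HSP70-4, a heat-induced chaperone used as the check of the shift, stood at 1628, 2899 and 3150 TPM (transcript abundance per length, scaled to the same total in each library) in 37 °C seedlings, against 32.4, 33.1 and 14.0 TPM in 17 °C seedlings at the same times. It stood between 65.5 and 923 TPM in the 6 libraries moved from 17 to 27 °C, against 6.60 to 36.02 TPM in their 6 controls. It stood at 1774, 1495 and 232 TPM in the 3 libraries moved from 22 to 27 °C, against 284, 251 and 88.5 TPM at 22 °C, so every label matched the direction of this gene. The first 1 h libraries of the 27 °C experiment had 6.45% of counts on chloroplast genes at 27 °C and 5.43% at 17 °C, while the other 25 libraries had at most 1.54%. Nothing in the labels says that libraries came from separate cultures, so p-values measure the spread between these samples.

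Promoters of the genes on which the results turn are shown first, since histone promoters carry a plant octamer, CGCGGATC, and a hexamer, ACGTCA. Each is 300 bases of the RefSeq TAIR10.1 genome, 250 before and 50 after the first base of the gene in RefSeq, read on the gene's own strand. The gene models behind the deposited counts give the same start for 11 of the 36 histone genes and a start further downstream, by up to 482 bases, for 25. HTR1 (chr5:26120532-26120831) and HTR9 (chr5:3270908-3271207) encode H3.1 and lie on the minus strand. HTR5 (chr4:18558896-18559195, minus strand) encodes H3.3, and HTA13 (chr3:7229140-7229439, plus strand) encodes H2A. HTB1 (chr1:2412688-2412987), HTB3 (chr2:12326558-12326857) and HTB4 (chr5:24126627-24126926) encode H2B and lie on the plus strand. Capitals mark the octamer or the hexamer on either strand.
HTR1: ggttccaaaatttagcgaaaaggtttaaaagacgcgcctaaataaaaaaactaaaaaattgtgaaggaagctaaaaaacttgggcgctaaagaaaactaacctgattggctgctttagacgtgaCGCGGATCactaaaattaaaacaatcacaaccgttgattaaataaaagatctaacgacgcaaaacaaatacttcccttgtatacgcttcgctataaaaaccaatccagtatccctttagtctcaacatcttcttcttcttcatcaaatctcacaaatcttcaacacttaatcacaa
HTR9: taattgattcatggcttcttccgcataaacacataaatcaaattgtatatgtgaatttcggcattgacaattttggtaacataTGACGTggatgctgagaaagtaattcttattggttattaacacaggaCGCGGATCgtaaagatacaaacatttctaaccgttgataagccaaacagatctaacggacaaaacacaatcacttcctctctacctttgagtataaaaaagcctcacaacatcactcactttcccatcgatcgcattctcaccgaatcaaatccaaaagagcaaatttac
HTR5: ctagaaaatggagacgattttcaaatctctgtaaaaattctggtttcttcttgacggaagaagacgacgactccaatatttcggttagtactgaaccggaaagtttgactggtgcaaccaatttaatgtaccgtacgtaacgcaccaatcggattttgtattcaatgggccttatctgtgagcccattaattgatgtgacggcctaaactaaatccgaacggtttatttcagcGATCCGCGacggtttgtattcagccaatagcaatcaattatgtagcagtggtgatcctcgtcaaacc
HTA13: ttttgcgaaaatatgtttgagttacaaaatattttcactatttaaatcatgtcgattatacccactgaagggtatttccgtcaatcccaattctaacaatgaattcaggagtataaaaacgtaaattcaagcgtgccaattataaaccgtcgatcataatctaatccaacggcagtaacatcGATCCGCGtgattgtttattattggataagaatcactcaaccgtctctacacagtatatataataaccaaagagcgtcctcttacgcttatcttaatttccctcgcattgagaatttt
HTB1: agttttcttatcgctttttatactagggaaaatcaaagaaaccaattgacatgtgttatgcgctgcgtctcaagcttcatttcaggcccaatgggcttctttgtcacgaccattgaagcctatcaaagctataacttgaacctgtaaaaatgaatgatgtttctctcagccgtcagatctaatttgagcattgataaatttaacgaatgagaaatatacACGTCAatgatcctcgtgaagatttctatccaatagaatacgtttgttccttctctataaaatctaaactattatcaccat
HTB3: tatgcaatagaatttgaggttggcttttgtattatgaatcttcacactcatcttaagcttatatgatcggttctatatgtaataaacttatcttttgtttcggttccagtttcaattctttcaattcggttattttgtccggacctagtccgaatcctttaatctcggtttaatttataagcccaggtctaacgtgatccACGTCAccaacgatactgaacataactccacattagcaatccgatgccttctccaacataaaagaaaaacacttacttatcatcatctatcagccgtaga
HTB4: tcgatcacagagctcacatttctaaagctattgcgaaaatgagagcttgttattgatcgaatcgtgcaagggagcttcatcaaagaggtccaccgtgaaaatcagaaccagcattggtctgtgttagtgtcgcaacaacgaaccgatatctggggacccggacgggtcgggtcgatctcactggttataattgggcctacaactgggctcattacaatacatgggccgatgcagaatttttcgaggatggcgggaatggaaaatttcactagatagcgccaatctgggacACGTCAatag

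The octamer, searched on both strands, was in 10 of the 36 histone promoters (27.8%) and in 40 of the promoters of 27443 protein-coding genes (0.146%), those 10 included. It was found in 3 of 5 H3.1 genes, 1 of 3 H3.3 genes, 2 of 8 H4 genes and 0 of 8 H2B genes. In HTR1 it began at position -126, in HTR9 at -120 and in HTR5 at -17, counted from the RefSeq start as 0. The deposited start is the same base in HTR1 and lies 5 bases downstream in HTR9 and 202 bases downstream in HTR5, so the place of the HTR5 octamer relative to the start depends on the annotation. The hexamer, also searched on both strands, was in 12 of 36 histone promoters (33.3%), against 9.19% of all promoters. It was present in all 8 H2B promoters, which include HTB4, which did not pass the test at 37 °C, as well as HTB1 and HTB3, which fell. In HTB4 it began at position 40, after the RefSeq start, and in HTB1 and HTB3 at -31 and -50. The deposited starts of these genes lie 251, 42 and 170 bases downstream, so these places depend on the annotation. The E2F words TTTCCCGC, TTTGGCGC, TTTGCCGC and TTTCGCGC, on both strands, were in 3 of 36 histone promoters (8.33%), against 1.76% of all. The heat shock element, 3 alternating units of GAA or its reverse complement with any 2 bases between them, was in 0 of the 36, against 0.481% of all. A match describes letters in a window and is no measure of binding.

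Across the 27 libraries the H3.3 genes were among the 4 with the highest level. HTR4 had a median of 465 TPM (lowest 250, highest 581), HTR5 429 TPM (336 to 494) and HTR8 272 TPM (169 to 359). HTB4, the highest H2B gene, stood at 329 TPM (226 to 404). These ranges overlapped, so the order among the 4 is not firm. The highest H4 gene, AT5G59690, had 243 TPM and the highest H3.1 genes, HTR1 and HTR2, 178 and 166 TPM. The lowest member was H1.3, the stress-inducible linker histone, at a median of 7.11 TPM (0.595 to 30.5). Within the H2B family, levels spanned HTB4 at 329 TPM to HTB6 at 22.2 TPM. Together the 36 genes made up 0.384 to 0.417% of TPM in the 3 libraries at 37 °C, against 0.420 to 0.619% in the 15 unshifted libraries of the series. In libraries moved to 27 °C the share was 0.424 to 0.535% from 17 °C and 0.411, 0.394 and 0.251% from 22 °C. A low share was therefore not particular to 37 °C.

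**Figure D1:**
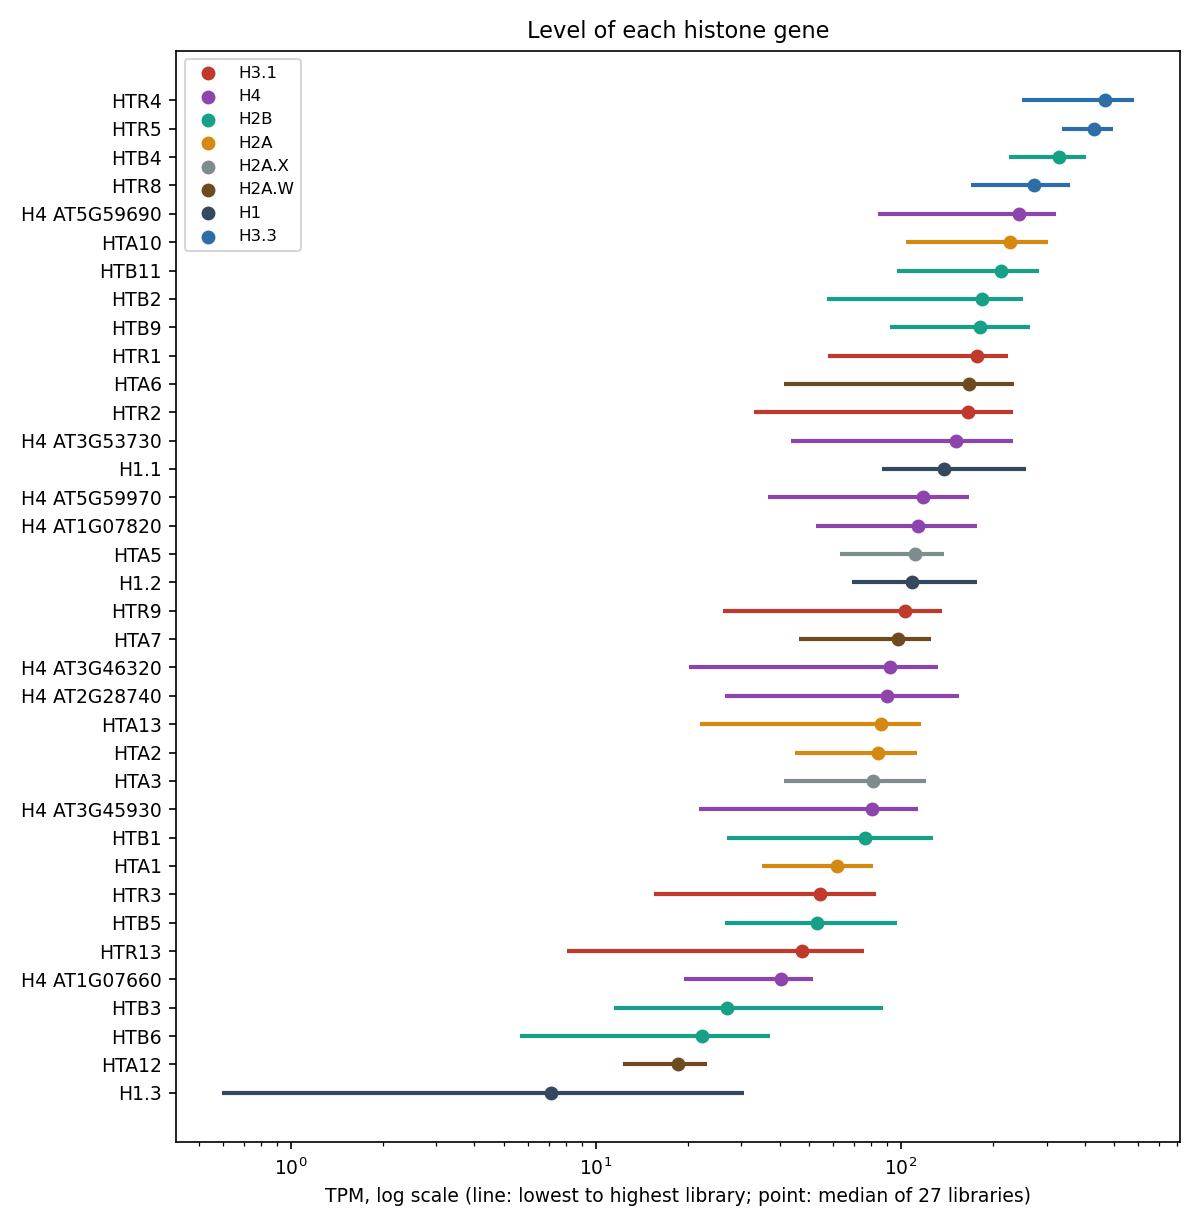
Level of each of the 36 histone genes in TPM on a log axis, with a line between the lowest and highest of the 27 libraries and a point at the median, coloured by class. The 3 H3.3 genes and HTB4 sit at the top, and H1.3 has the lowest median, 7.11 TPM, and the widest range.

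At 37 °C the mRNA of the replication-coupled H3.1 genes was lower than in 17 °C seedlings at every time, while that of the H3.3 genes was not. The 5 H3.1 genes summed to 330, 362 and 380 TPM in 37 °C seedlings at 15 min, 1 h and 4 h, against 661, 630 and 676 TPM in 17 °C seedlings at these times and 614 TPM at 0 min. All 3 values at 37 °C lay below all 4 at 17 °C. On TPM 72%, 76.9% and 70.9% of all genes were below their control at 15 min, 1 h and 4 h of 37 °C. These are shares of genes at a mean TPM of 1 or more and apply also to the single genes below. Groups without overlap over the 3 times were not counted for all genes. The 3 H3.3 genes summed to 1307, 1244 and 1349 TPM at 37 °C, against 1290, 1156 and 1152 TPM at 17 °C and 1380 TPM at 0 min, so the H3.3 groups overlapped. The H3.1 to H3.3 ratio was 0.253, 0.291 and 0.282 at 37 °C, against 0.512, 0.545 and 0.587 at 17 °C and 0.445 at 0 min. On a log2 scale the ratio was lower by a mean difference of -0.99 (SD 0.08 over the 3 times, each 1 library against 1). Over all 15 unshifted libraries of the series the ratio lay between 0.382 and 0.594, above each 37 °C library. Counts divided by RefSeq transcript length gave -0.96 in place of -0.99. Leaving out HTR3, which overlaps AT3G27380 on the same strand and shares 31.2% of its 100-base words with it, also gave -0.96. The first only reweights counts of the same libraries, and HTR3 held 23.3 of the 330 TPM at 15 min of 37 °C. Both are therefore weak checks.

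**Figure D2:**
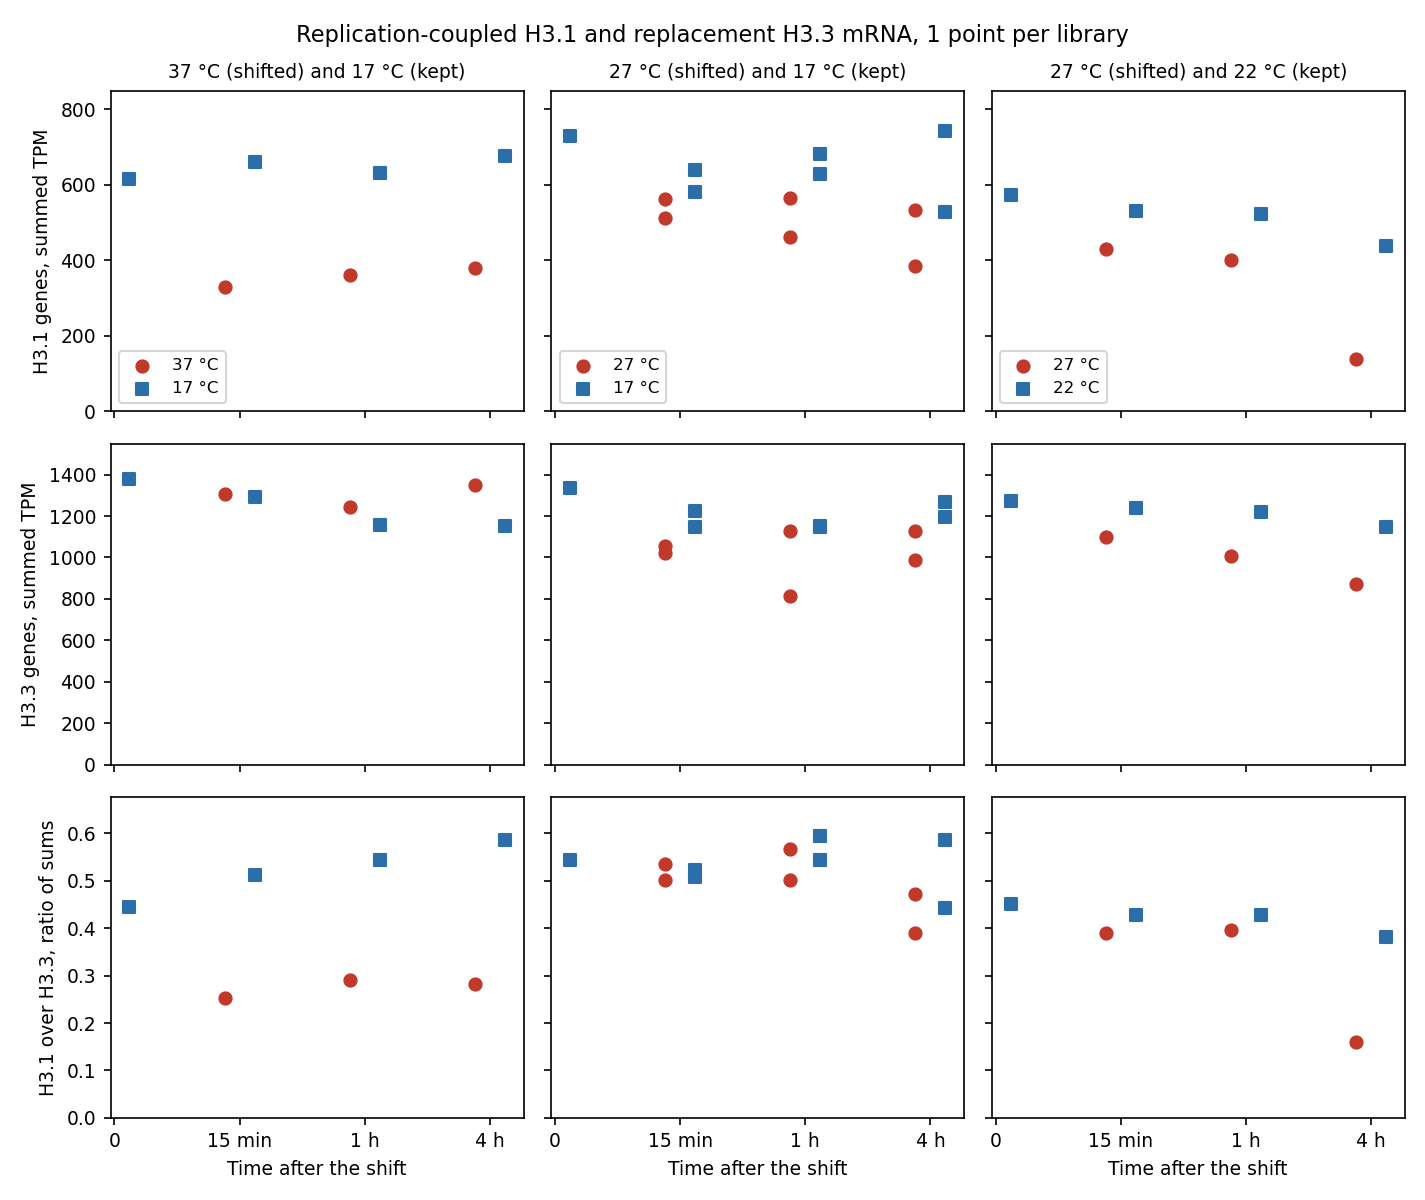
Summed TPM of the H3.1 genes (top), of the H3.3 genes (middle) and their ratio (bottom) by time after the shift, 1 point per library, with shifted libraries as red circles and unshifted ones as blue squares. At 37 °C the ratio sits between 0.253 and 0.291, below all 17 °C libraries, and a still lower value, 0.161, is seen in the 27 °C library at 4 h of the move from 22 °C.

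Tests on counts used edgeR's quasi-likelihood fit over the 3 times, which scales libraries so that the median gene is near 0. Deposited TPM is shifted against it: the median log2 TPM ratio of all genes was -0.25, -0.37 and -0.39 at 15 min, 1 h and 4 h of 37 °C. Fold changes below are therefore relative to the typical gene. Over the 3 times at 37 °C, 17 of the 36 histone genes passed an adjusted p of 0.05, 15 lower and 2 higher. Of all 21077 genes tested, 21.2% passed, with 11.3% lower and 9.91% higher. The median log2 fold change was -0.43 over the 36 genes and 0 over all genes. These calls rest on 6 libraries with 2 residual degrees of freedom, and their number depends on the times used: it was 12 without the 4 h libraries, 5 without those of 15 min and 0 without those of 1 h, where 445 of all genes passed and the median of the 36 was -0.46. With the spread pooled over all 27 libraries it was 15, of which 11 were among the 17.

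Among H3.1 genes HTR9 and HTR1 fell and the other 3 were lower without passing. HTR9 had 54.2, 54.8 and 55.7 TPM at 37 °C, against 120, 112 and 115 TPM at 17 °C. HTR1 had 105, 115 and 116 TPM at 37 °C, against 206, 203 and 215 TPM at 17 °C. Both were about even across the times within a temperature, and the groups did not overlap. On this scale 70.9 to 76.9% of all genes were below their control at a given time. HTR9 fell by 0.76 on the log2 scale (SE 0.12, edgeR adjusted p = 0.0186) and HTR1 by 0.57 (SE 0.12, edgeR adjusted p = 0.0299). HTR2 was at -0.39, HTR13 at -0.37 and HTR3 at -0.65 (edgeR adjusted p = 0.152 for HTR3).

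All 3 H3.3 genes were above 0. HTR5, which lies 214 bases from HTR4 on the chromosome by the deposited gene models, had 465, 442 and 462 TPM at 37 °C, against 429, 413 and 448 TPM at 17 °C and 479 TPM at 0 min. It was higher than its control at each time, although the 0 min library was higher still. HTR5 rose by 0.40 on the log2 scale (SE 0.09, edgeR adjusted p = 0.0399), while its mean log2 ratio on TPM was 0.09, and the call was lost with the pooled spread (adjusted p = 0.0956) and without any of the 3 times. HTR4 was at 0.53 (edgeR adjusted p = 0.0518, and 0.0256 with the pooled spread) and HTR8 at 0.34 (edgeR adjusted p = 0.101), against 0.20 and 0.03 on TPM.

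The H4 genes, which all encode the same kind of partner of H3, were below 0 in 8 of 8 cases and 5 of them fell. AT3G53730 had 105, 68.1 and 60.1 TPM at 37 °C, against 193, 183 and 191 TPM at 17 °C. AT3G46320 had 55.2, 40.4 and 41.7 TPM at 37 °C, against 107, 107 and 105 TPM at 17 °C. In both genes the 37 °C libraries were lower at 1 h and 4 h than at 15 min and lay below every 17 °C library. AT3G53730 fell by 1.01 on the log2 scale (SE 0.17, edgeR adjusted p = 0.0209) and AT3G46320 by 0.94 (SE 0.14, edgeR adjusted p = 0.0149). AT1G07820 fell by 0.72, AT2G28740 by 0.61 and AT5G59970 by 0.61. Pairs of H4 genes have 78.8 to 98.1% identity of coding sequence, with a median of 82.4%. AT3G45930 with AT3G46320, and AT1G07660 with AT1G07820, share up to 12.1% of their 100-base words, so reads may be split between these pairs.

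Among H2B genes HTB1, HTB2, HTB3, HTB5 and HTB9 fell, HTB6 and HTB11 were lower without passing, and HTB4 was at 0.21 with edgeR and at -0.10 on TPM. HTB1 had 35.2, 37.2 and 47.1 TPM at 37 °C, against 104, 101 and 102 TPM at 17 °C. HTB3 had 15.0, 11.5 and 13.3 TPM at 37 °C, against 34.9, 27.5 and 58.2 TPM at 17 °C. HTB4 had 290.5, 308 and 339 TPM at 37 °C, against 362, 315 and 328 TPM at 17 °C, and its groups overlapped. HTB3 fell by 1.25 on the log2 scale (SE 0.23, edgeR adjusted p = 0.0254) and HTB1 by 1.08 (SE 0.15, edgeR adjusted p = 0.0139). HTB5 fell by 0.64, HTB2 by 0.53 and HTB9 by 0.47.

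Among canonical H2A genes HTA13 and HTA2 fell, and HTA1 and HTA10 did not. HTA13 had 27.6, 22.0 and 51.2 TPM at 37 °C, against 86.2, 87.7 and 108 TPM at 17 °C. It was lowest at 1 h and the groups did not overlap. HTA13 fell by 1.21 on the log2 scale (SE 0.22, edgeR adjusted p = 0.0245). It overlaps AT3G20680 on the other strand, as HTA3, HTA12, HTB9, H1.1 and H1.2 overlap other genes, and whether strand was used in counting is not given in the sources used here. HTA2 fell by 0.47 (SE 0.12, edgeR adjusted p = 0.0481), a call lost in 6 of 8 alternatives. HTA1, which is needed for T-DNA integration by Agrobacterium, was at 0.23 with edgeR and -0.12 on TPM, and HTA10 at 0.04 and -0.27, so their directions turn with the scaling.

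Of the H2A variants, HTA6, one of the H2A.W genes that mark heterochromatin, fell by 0.48 (SE 0.10, edgeR adjusted p = 0.0358), with 124, 116 and 121 TPM at 37 °C, against 199, 196 and 231 TPM at 17 °C. HTA7 and HTA12, the other H2A.W genes, were at -0.03 and -0.08. The H2A.X genes HTA3 and HTA5, whose protein is phosphorylated at DNA breaks, were at -0.04 and -0.22. The linker histones H1.1 and H1.2 were at -0.16 and -0.37, and neither passed.

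H1.3, the least abundant member, rose. It had 20.4, 8.53 and 8.77 TPM at 37 °C, against 9.99, 6.76 and 5.08 TPM at 17 °C and 15.0 TPM at 0 min. It was higher than its control at each time, but the 1 h and 4 h values at 37 °C lay below the 0 min library, so the groups overlapped. H1.3 rose by 1.06 on the log2 scale (SE 0.22, edgeR adjusted p = 0.031). With the spread pooled over 27 libraries the adjusted p was 0.386, and without 1 h and without 15 min it was 0.144 and 0.121. Its level varied within groups elsewhere: the 2 libraries kept at 17 °C for 15 min in the 27 °C experiment had 30.5 and 2.25 TPM.

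**Figure D3:**
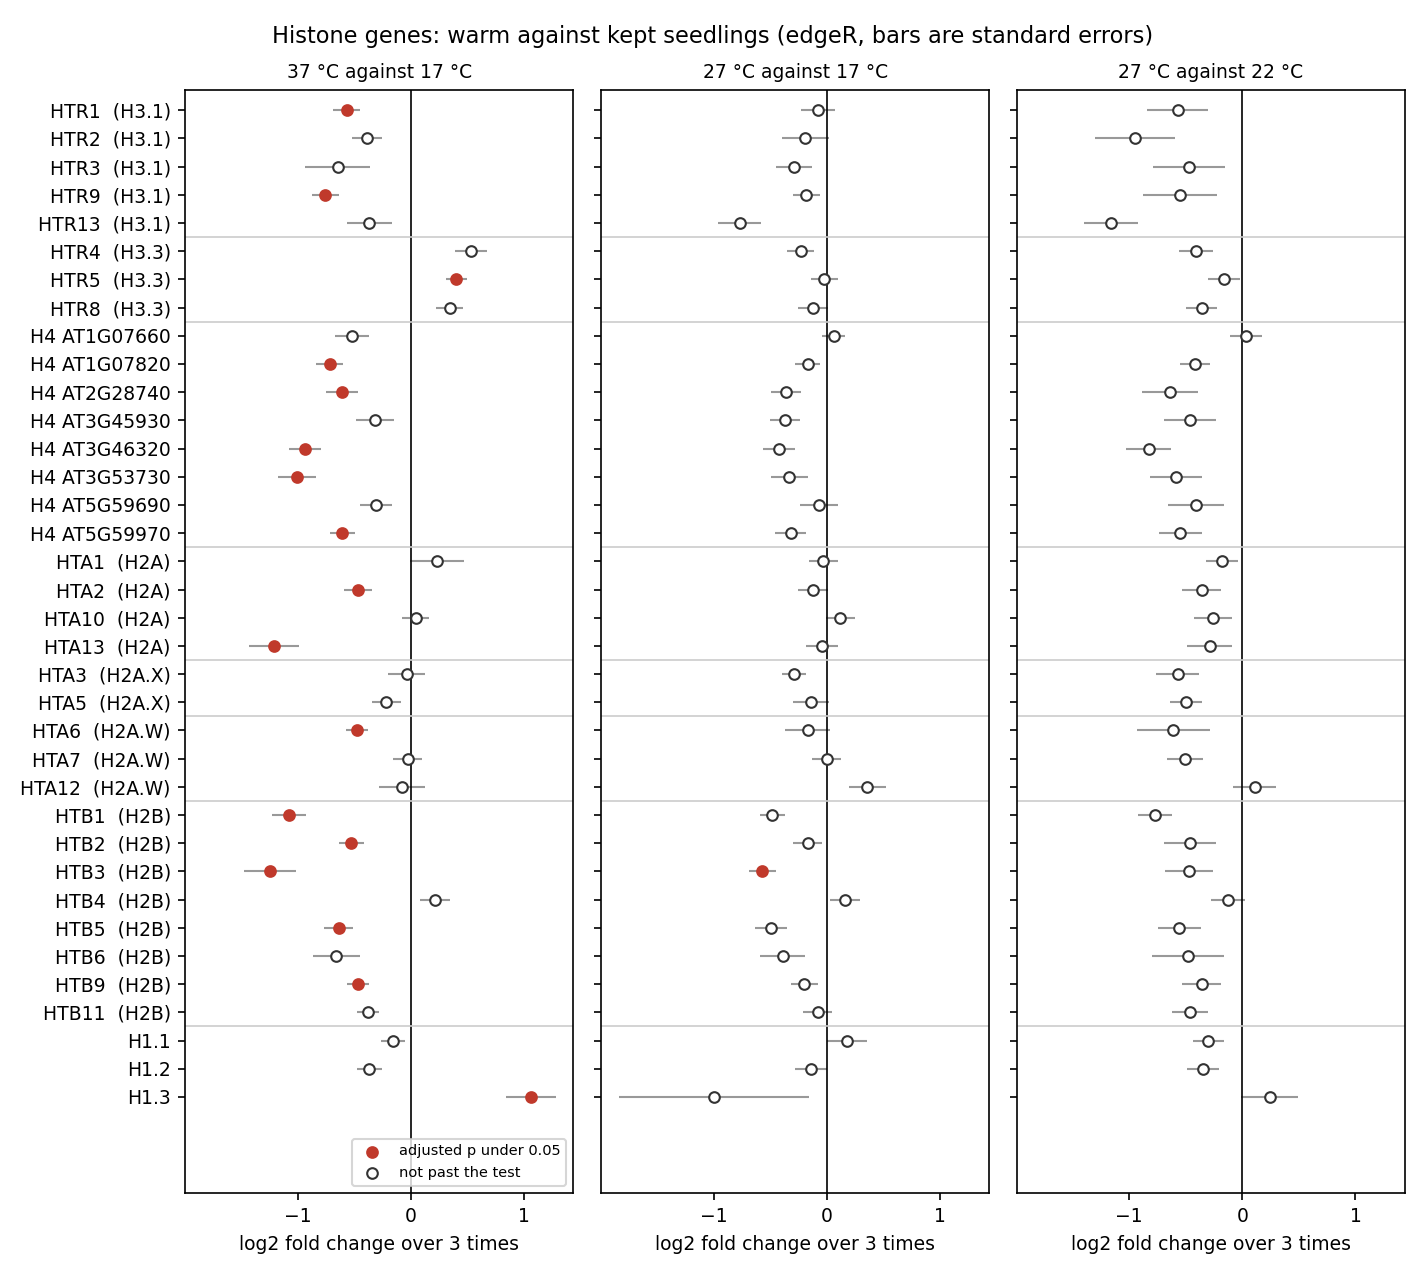
Log2 fold change over the 3 times with its standard error for each of the 36 histone genes, ordered by class, in the moves to 37 °C from 17 °C, to 27 °C from 17 °C and to 27 °C from 22 °C. Filled points passed an adjusted p of 0.05: 17 of 36 at 37 °C, 1 of 36 at 27 °C from 17 °C (HTB3) and 0 of 36 from 22 °C.

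At single times fewer genes passed, from lone libraries assumed to vary like the duplicated groups. At 15 min of 37 °C, HTB1 fell by 1.34 (SE 0.27, edgeR adjusted p = 0.0294), the only call among the 36 (all genes 2.46%), followed in size by HTA13 at -1.34, H1.3 at 1.3 and HTR3 at -1.25. At 1 h HTA13 fell by 1.62 (SE 0.33, edgeR adjusted p = 0.0218) and HTB1 by 1.08 (SE 0.27, edgeR adjusted p = 0.0486), against 4.83% of all genes, with AT3G46320 at -1.04 and AT3G53730 at -1.03. At 4 h HTB3 fell by 1.82 (SE 0.28, edgeR adjusted p = 0.00307), AT3G53730 by 1.38, AT3G46320 by 1.06 and AT1G07820 by 0.86, so 4 of 36 passed, against 15.3% of all genes. The calls on HTB1 at 1 h and on AT3G46320 and AT1G07820 at 4 h were lost in 2 of 4 alternatives each. The difference between the 4 h and 15 min effects passed for 0 of 36 (edgeR, 0.198% of all genes, and 0 with DESeq2), with 2 at an unadjusted p under 0.05, against 9.59% of all genes. The largest such differences were HTR3 at 1.16, HTA1 at 1.06, HTB3 at -0.83 and HTR13 at 0.79. On summed TPM the H3.1 genes were already at a log2 ratio of -1.0 at 15 min, then at -0.80 and -0.83, and the H4 genes at -0.86, -0.96 and -0.86. The H2A sum was at -0.63, -0.55 and -0.34.

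**Figure D4:**
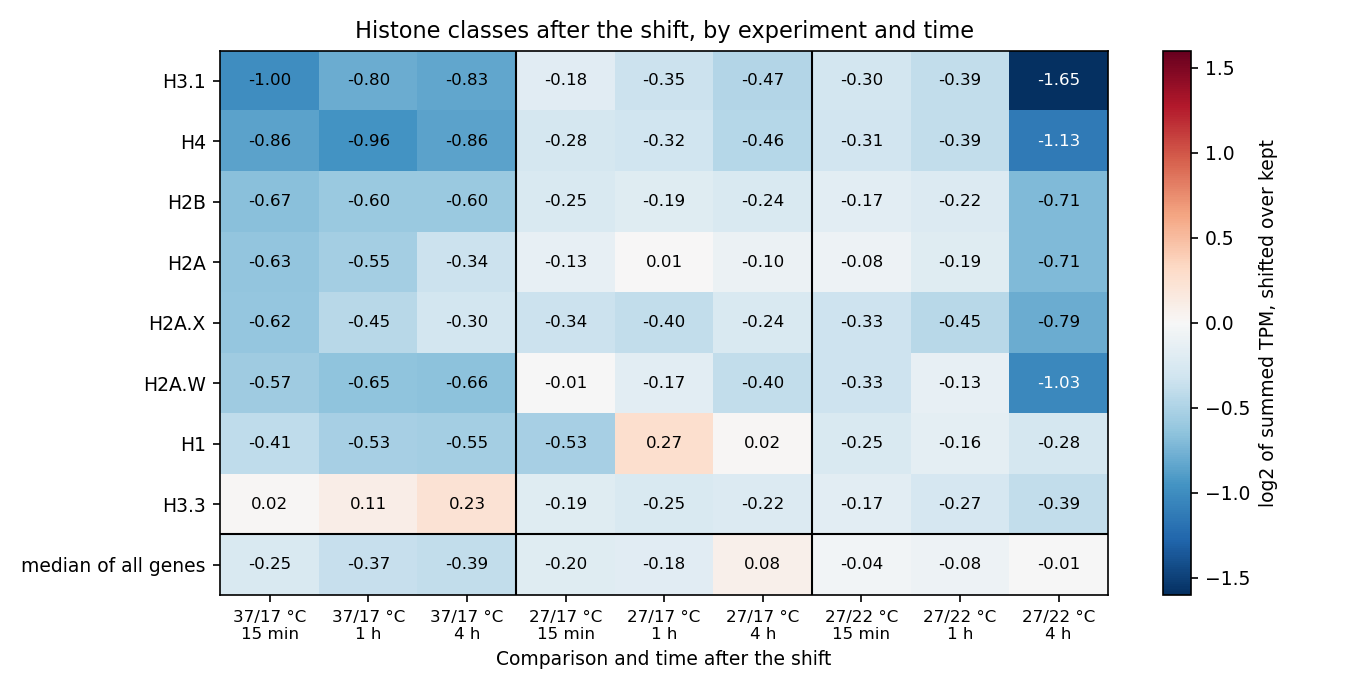
Log2 ratio of summed TPM, shifted over unshifted libraries, for each histone class (rows) by experiment and time (columns), with the median over all genes in the bottom row. H3.1 and H4 lie between -0.80 and -1.0 at all 3 times of 37 °C and lowest, at -1.65 and -1.13, at 4 h of the move from 22 to 27 °C.

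Among listed genes for handling histones and for replicating DNA, none passed the test over the 3 times at 37 °C, where 21.2% of all genes did. Of 17 histone chaperone genes 0 passed (median log2 fold change 0.11, 14 above 0), as was the case for 0 of 13 DNA replication genes, such as the MCM helicase and PCNA (0.07), and 0 of 10 mitotic genes, such as B-type cyclins (0.14). At 4 h the sliding clamp gene PCNA2 fell by 0.95 (SE 0.25, edgeR adjusted p = 0.0323) and FAS2, a CAF-1 subunit, by 1.35 (SE 0.40, edgeR adjusted p = 0.0483). At that time 10 of the 13 DNA replication genes were above 0 (median 0.37). So were 12 of the 17 chaperone genes (median 0.11). At 15 min and 1 h the DNA replication medians were -0.15 and -0.06, with 10 and 9 of 13 below 0. The mitotic medians were -0.12, 0.3 and -0.06 at 15 min, 1 h and 4 h. Markers of other cell types moved too. Of 9 root cell type genes 5 fell (median -1.53), among them EXPA18 (-2.99) and EXPA7 (-2.50) of root hairs, CASP4 of the endodermis (-1.84) and PYK10, a root beta-glucosidase (-1.65). Of 6 measured meristem genes (median -0.55, 1 above 0) CUC2 (-3.63) and KNAT1 (-0.94) fell. CUC2 was barely detected, at 0.179, 0.157 and 0 TPM at 37 °C, against 1.76, 1.31 and 1.15 TPM at 17 °C. Of 6 shoot photosynthesis genes RCA, the Rubisco activase, rose by 0.54. Their part in the histone results was not tested.

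At 27 °C from 17 °C fewer histone genes passed. Over the 3 times 31 of 36 histone genes were below 0, with a median of -0.17 against -0.01 for all genes, and HTB3 alone passed (1 of 36, against 1.51% of 20818 genes). HTB3 had 15.8 and 12.3 TPM at 15 min, 12.3 and 22.5 TPM at 1 h and 71.8 and 63.9 TPM at 4 h in 27 °C seedlings. Kept at 17 °C it had 28.4 and 29.0, 27.7 and 26.9, and 87.0 and 86.8 TPM at these times. The groups did not overlap at any time, and both were highest at 4 h. Both 27 °C libraries lay below both controls in 48%, 23.5% and 14.2% of all genes at 15 min, 1 h and 4 h. These shares are of genes at a mean TPM of 1 or more, whose median log2 TPM ratios were -0.20, -0.18 and 0.08. HTB3 fell by 0.57 on the log2 scale (SE 0.12, edgeR adjusted p = 0.0389). This call was close to the threshold: it held without the first 27 °C library at 15 min and without the second 27 °C library at 1 h, and was lost without any of the other 10 libraries, at adjusted p between 0.0605 and 0.11.

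Libraries with the same number and time varied together, and a fit with that pairing as a replicate block within each time called 4 of 36, against 2.61% of all genes. These were HTB3 (-0.57), HTB1 (-0.47), HTB5 (-0.50) and the H4 gene AT3G45930 (-0.37), at edgeR adjusted p between 0.0339 and 0.0494. HTB5 had 52.9, 49.3, 50.4, 49.1, 58.1 and 44.9 TPM in the 6 libraries at 27 °C, against 78.9, 76.3, 80.3, 73.4, 79.0 and 82.2 TPM at 17 °C. HTR13, at -0.77, was further from 0 but varied more (SE 0.19, edgeR adjusted p = 0.0716). H1.3 was at -1.0 (edgeR adjusted p = 0.576), and at 0.07 without the first 17 °C library at 15 min.

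The other listed genes were also measured in this experiment, and 0 of them passed over the 3 times apart from the 3 heat-induced check genes. The 13 DNA replication genes had a median log2 fold change of -0.19 over the 3 times, with 10 below 0, and of -0.71 at 1 h, with 12 below 0. At 1 h these genes summed to 155 and 277 TPM in the 2 libraries at 27 °C, against 299 and 350 TPM at 17 °C. The first of each is the library with the high chloroplast share, 6.45% and 5.43% of counts. The 1 h value thus rests largely on 1 library. The 10 mitotic genes had a median of 0.13. All 6 measured meristem genes were below 0 (median -0.26) and all 6 shoot photosynthesis genes above 0 (0.22), and the 9 root genes had a median of 0.03, which was -0.49 at 4 h. Their part in the histone values was not tested.

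At single times of 27 °C, 0 of 36 passed in edgeR without the block at 15 min, 1 h or 4 h (0.223%, 0.852% and 0.0331% of all genes), with 3, 5 and 12 at an unadjusted p under 0.05, against 4.80%, 16.1% and 12.3% of all genes. DESeq2 called 0, 1 and 2. The largest values were H1.3 at -2.93, HTB3 at -0.84, H1.2 at -0.53 and HTB5 at -0.37 at 15 min, and HTR13 at -1.30, HTA12 at 0.62, H1.3 at -0.60 and H1.1 at 0.55 at 1 h. The H1.3 value at 15 min rests on the control library with 30.5 TPM and was -0.06 without it. At 4 h they were HTB6 at -1.21, AT5G59970 at -0.75, H1.3 at 0.74 and HTB5 at -0.74. At 4 h 33 of 36 were below 0 (median -0.41). With the block within time HTR13 was called at 1 h (-1.28, edgeR adjusted p = 0.0176, against 7.82% of all genes). At 4 h 7 of 36 were called, all lower, against 2.58% of all genes: HTB6 (-1.20), the H4 genes AT3G53730 (-0.75), AT5G59970 (-0.75) and AT3G46320 (-0.70), HTB5 (-0.75), HTA6 (-0.72) and HTB1 (-0.69). The effect at 4 h minus that at 15 min passed for 0 of 36 with or without the block and with DESeq2 (0% of all genes without the block), with 4 at an unadjusted p under 0.05, against 7.75% of all genes, and 30 of 36 below 0. The largest were H1.3 at 3.66 (0.78 without that control library), HTB6 at -1.21, HTA6 at -0.96 and HTR2 at -0.86. The H3.1 to H3.3 ratio at 27 °C was 0.501 and 0.535 at 15 min, 0.568 and 0.502 at 1 h, and 0.389 and 0.473 at 4 h. At 17 °C it was 0.508 and 0.523, 0.594 and 0.544, and 0.442 and 0.586, so the groups overlapped at every time. Between libraries of the same number it was lower at 27 °C in 5 of 6 pairs, in both at 1 h and 4 h and in the first at 15 min, with no test of this value.

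The difference between the 37 °C and 27 °C effects, each against its own controls, passed for 5 of 36 genes, against 15.8% of all genes. HTA13 was at -1.21 at 37 °C and -0.04 at 27 °C, a difference of -1.16 (SE 0.26, edgeR adjusted p = 0.0096). In the 27 °C experiment it had 72.3 to 114 TPM at 27 °C, against 81.1 to 114 TPM at 17 °C. HTR4 was at 0.53 at 37 °C and -0.23 at 27 °C, a difference of 0.77 (SE 0.20, edgeR adjusted p = 0.0181). Both differences passed without any 1 library of the 27 °C experiment. The others were the H4 genes AT1G07660 (-0.57) and AT1G07820 (-0.54) and HTB1 (-0.59, edgeR adjusted p = 0.0497). AT1G07660 was lost without the second 27 °C library at 15 min (adjusted p = 0.0535), and the AT1G07820 and HTB1 differences were lost under 15 of 22 alternatives each, most of them a left-out library. With a whole time left out of both experiments, HTR4 alone passed without 15 min, 0 of 36 without 1 h and HTA13 alone without 4 h.

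**Figure D5:**
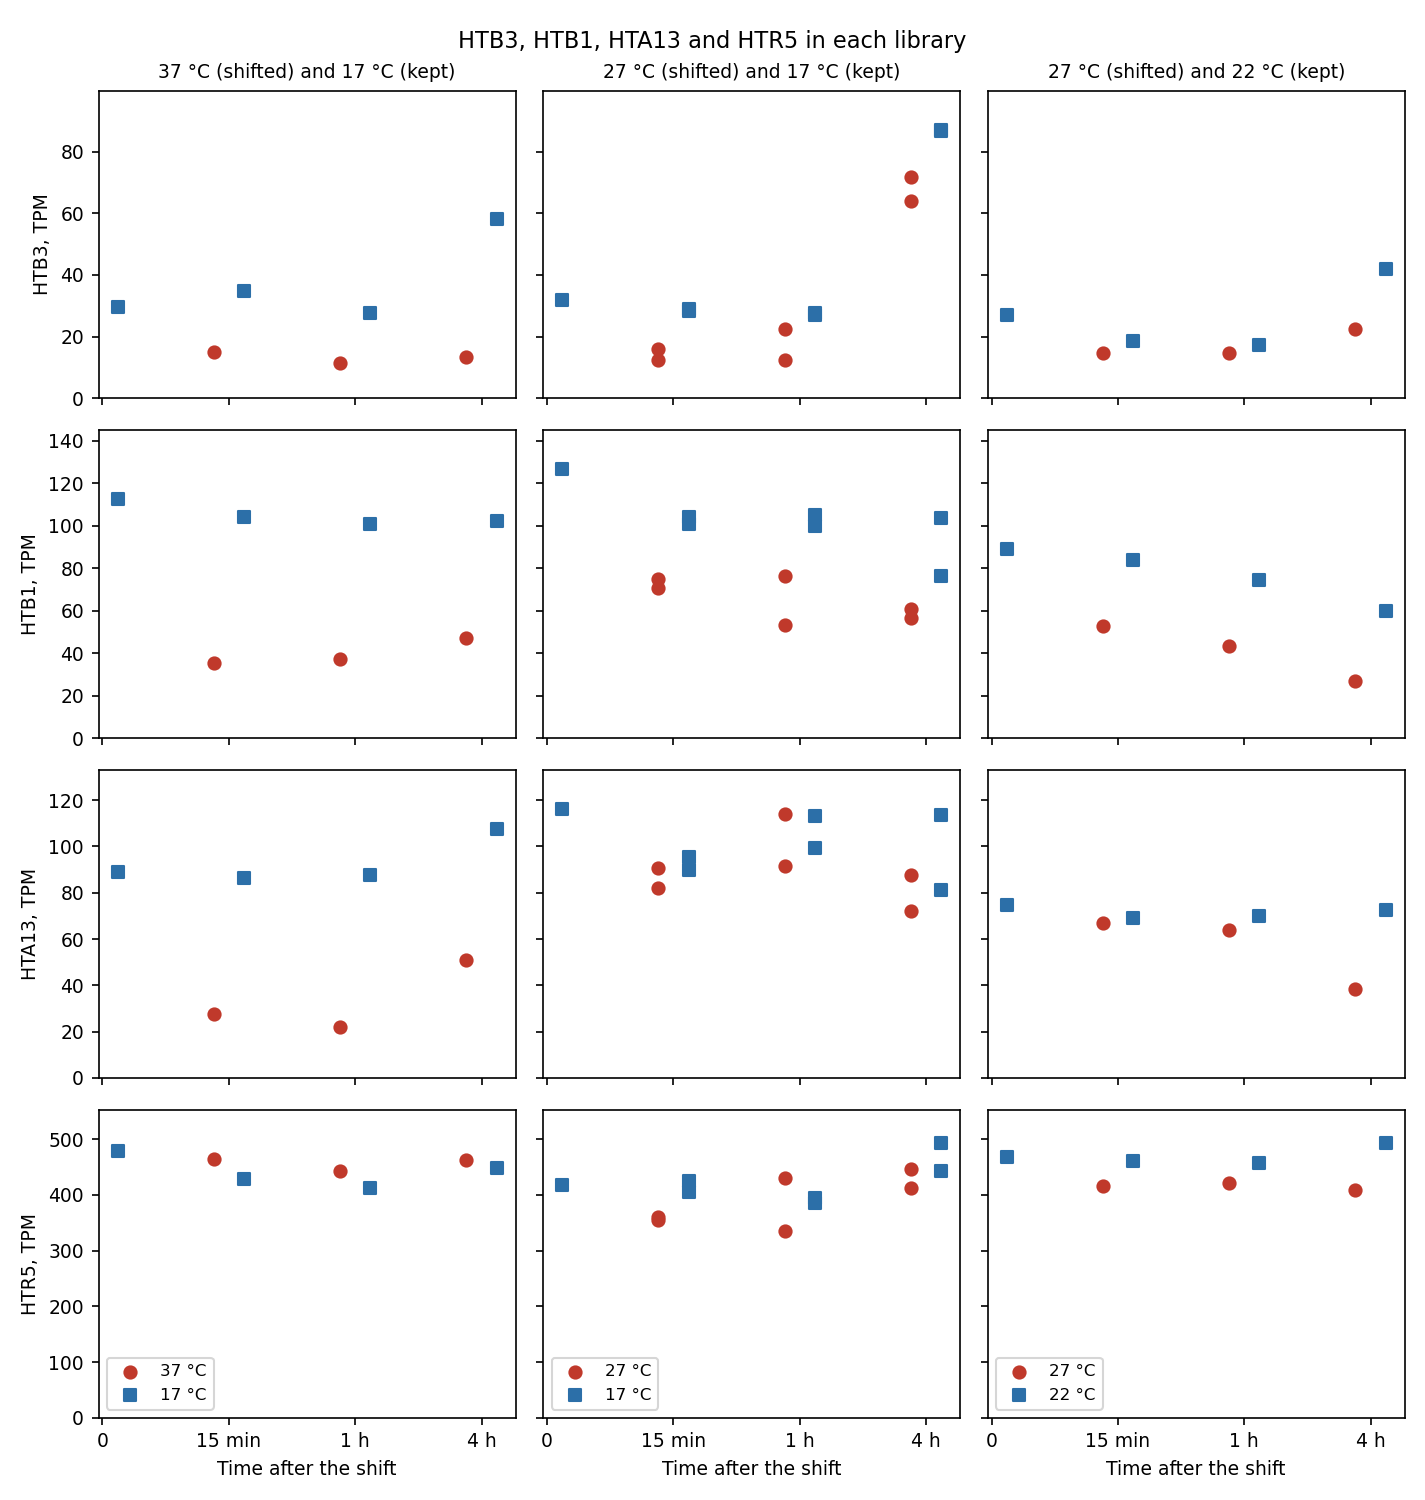
TPM of HTB3, HTB1, HTA13 and HTR5 (rows) by time in the 3 experiments (columns), 1 point per library, with shifted libraries as red circles and unshifted ones as blue squares. HTA13 is at 22.0 to 51.2 TPM at 37 °C, far below its controls, and overlaps its controls at 27 °C from 17 °C, and HTB3 is highest at 4 h except at 37 °C.

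After the move from 22 to 27 °C, histone levels were slightly lower at 15 min and 1 h and much lower at 4 h. At 4 h the H3.1 genes summed to 140 TPM in the 27 °C library, against 438 TPM in the 22 °C library, and the H4 genes to 329 TPM, against 718 TPM. The H3.3 genes summed to 873 TPM, against 1147 TPM. HTR2 had 33.03 TPM at 27 °C, against 138 TPM at 22 °C, and HTR9 26.01 TPM, against 83.05 TPM. The H3.1 sum of this 27 °C library was the lowest of all 27 libraries. The H3.1 to H3.3 ratio was 0.391, 0.397 and 0.161 at 27 °C, against 0.428, 0.429 and 0.382 at 22 °C.

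Over the 3 times 0 of 36 histone genes passed in edgeR (0.310% of 19063 genes), with 16 at an unadjusted p under 0.05, all lower, against 16.3% of all genes, and DESeq2 called HTR13. The fit gave 33 of 36 below 0 and a median of -0.46, which was -0.18 without the 4 h libraries. The largest values were HTR13 at -1.16 (edgeR adjusted p = 0.0985), HTR2 at -0.95, AT3G46320 at -0.83 and HTB1 at -0.77 (edgeR adjusted p = 0.0825). At 4 h alone, with the spread of the duplicated groups, the median was -0.91 over the 36 and -1.72 over H3.1. There 0 of 36 passed (4 of 22239 genes did, 0.0180%), and 25 had an unadjusted p under 0.05, against 11.6% of all genes. The 4 h effect minus the 15 min effect had a median of -0.73 and passed for 0 of 36, with 9 at an unadjusted p under 0.05, against 5.74% of all genes. Each group here is 1 library, so a change with temperature and a difference between libraries cannot be told apart. All 13 DNA replication genes and all 10 mitotic genes were below 0 over the 3 times, with medians of -0.61 and -0.18, and 0 passed in either list. Of 9 root genes 8 were below 0 (median -0.38). At 4 h the DNA replication genes summed to 92.6 TPM at 27 °C, against 221 TPM at 22 °C, a log2 ratio of -1.26, and the mitotic and root sums were at -0.54 and -0.57. Their part in the lower histone levels was not tested.

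Among unshifted libraries HTB3 was the only histone gene that changed by the test over the first 4 h. At 4 h it stood at 87.0, 86.8 and 58.2 TPM in 17 °C seedlings and 41.95 TPM in 22 °C seedlings, against 28.4, 29.0, 34.9 and 18.4 TPM at 15 min. Every 4 h library was above every 15 min library. HTB3 rose by 1.31 on the log2 scale (SE 0.15, edgeR adjusted p = 4.67e-05) and was 1 of 36 to pass, against 26.5% of all genes, and it passed in all 8 alternatives. H1.3 was at -1.66 (-0.32 without the 15 min library with 30.5 TPM), HTB5 at 0.25 and AT2G28740 at 0.24. At 1 h against 15 min 0 of 36 passed in edgeR and in DESeq2 (2.33% of all genes), and 0 had an unadjusted p under 0.05, against 14.1% of all genes. The largest values there were H1.3 at -1.61 (-0.32 without that library), HTA1 at 0.25, HTA5 at 0.22 and HTA3 at 0.21. At 37 °C HTB3 had 13.3 TPM at 4 h, against 15.0 TPM at 15 min. Of the DNA replication genes TSO2, CDT1A and MCM7 fell between 15 min and 4 h, by 0.68, 0.53 and 0.45.

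Histone genes of some classes also varied together across libraries. Log2 CPM (counts scaled by the library total times edgeR's TMM factor) was taken over the 27 libraries, with each experiment's mean removed. The median Spearman correlation was 0.62 among H3.1 genes, 0.72 among H4 genes and 0.72 between H3.1 and H4 genes. Between H3.1 and H3.3 genes it was 0.21, and between H3.3 and H4 genes 0.16, while H3.3 genes had 0.49 among themselves. Per gene, the median correlation with the other 35 was highest for HTR9 and AT3G53730, at 0.72, and lowest for H1.3, at -0.34, and HTA12, at -0.18. HTB3 had 0.16 and HTB4 0.33, against 0.61 to 0.66 for HTB1, HTB2, HTB5, HTB9 and HTB11. These values describe the same libraries that give the shifts above, include the temperature differences and share depth and library effects, so they are no separate evidence.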

How the data were processed

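RNA-seq of whole seedlings gave 1 file per library with counts, FPKM and TPM for each gene. Per the submitters' processing notes, TopHat, Picard, Trimmomatic, FastQC and the TAIR10 build were used. Not given in the sources used here are the tool that counted reads, its strand setting and its annotation release. Starts in the deposited gene positions count from 0 and were raised by 1 base. The labels name a stranded and an unstranded kit without saying which library had which. The authors deposited raw counts, which were tested, and FPKM, of which the deposited TPM is a rescaling (largest difference 5.1e-11). TPM served for levels and class sums, with no test.

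Counts were fitted with edgeR 4.0.16 in R 4.3.3 (TMM factors, filterByExpr, robust quasi-likelihood, two-sided tests) over all genes, with Benjamini-Hochberg adjustment over all genes tested and a threshold of 0.05. Fits over 3 times had time and temperature as terms and left out the 0 min libraries. Fits at single times used group means, over the 27 libraries for experiments with lone libraries. Alternatives were DESeq2 1.42.0, its size factors (RLE), no filter, no organelle genes, a replicate block, leaving out libraries or times, and a spread pooled over 27 libraries. The scripts were tested on simulated counts. Libraries of the same number and time deviated together in the 27 °C experiment (Pearson r of 0.47, 0.54 and 0.53 at 15 min, 1 h and 4 h), which pairs them by the data, and those of the same number at other times at r of -0.08 to 0.42. Duplicates differed beyond sampling noise (chi-square per gene of 28.4 to 88.3).

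The histone genes and the other lists were chosen with earlier results of these data known. In each comparison the genes past the test were named (the 12 largest by log2 fold change at 37 °C over the 3 times), or the 4 largest where fewer than 4 passed. HTR5, HTA6, HTA2, HTB2 and HTB9 at 37 °C were named outside this rule after their values were seen. Of other lists up to 4 called genes each were named.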

Additional observations from a re-analysis of the deposited data

Results flagged for a closer look

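The effects of 37 °C and of 27 °C, each against 17 °C controls of its own experiment, differed for 5 histone genes by an edgeR test of the difference itself, 5 of 36, against 15.8% of 21778 genes. The log2 differences were -1.16 for HTA13, -0.59 for HTB1, -0.57 for the H4 gene AT1G07660, -0.54 for the H4 gene AT1G07820 and 0.77 for HTR4. HTA13, HTB1, AT1G07660 and AT1G07820 were lower at 37 °C relative to 27 °C, and HTR4 was higher. The HTB1 and AT1G07820 differences were lost in 15 of 22 alternatives each, that of AT1G07660 in 4, and those of HTA13 and HTR4 in 2 each. The 2 shifts were separate experiments with separate controls, 1 library per group at 37 °C and 2 at 27 °C, so experiment and temperature cannot be told apart in the difference.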

How the results depend on the processing

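No alternative turned the direction of a called gene: of the values of called genes under alternatives, 203 stayed past the threshold, 101 did not and 0 changed sign. The alternatives refit the same counts, or part of them, for genes already far from 0, so a change of sign was unlikely from the start. Deposited TPM was not among the alternatives. The number of the 36 genes called depended on the setting as follows, and the cause was not tested. At 27 °C from 17 °C over the 3 times the 1 call became 4 with DESeq2, 3 with the replicate block and 4 with the replicate block within time (315 genes of all were called, against 1183, 487 and 551). It became 0 without 15 min, without 1 h, without 4 h and without both 1 h libraries numbered 1, and 0 to 3 with each library left out in turn. At 1 h the 0 calls became 1 with DESeq2, 1 with the replicate block within time and 0 to 1 with a library left out. At 4 h they became 2 with DESeq2 and 7 with the replicate block within time. At 37 °C over the 3 times the 17 calls became 5 without 15 min and 0 without 1 h. At 15 min of 37 °C 1 call became 2 without the filter, and at 1 h 2 calls became 1 with DESeq2 and 1 with RLE factors. At 27 °C from 22 °C the 0 calls became 1 with DESeq2 and 2 without the filter. For the difference between the 37 °C and 27 °C effects the 5 calls became 3 with RLE factors, 3 without the filter, 1 without 15 min, 0 without 1 h, 1 without 4 h and 3 to 7 with a library left out. The replicate block changed no other call count by over 1.5 times. The lowest depth, 5790129 counts, was in the experiment from 22 °C, whose groups are lone libraries.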
